A study of Mus musculus with 6 samples.

Results

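Nfia, Nfib and Nfix encode 3 of the 4 nuclear factor I (NFI) transcription factors of the mouse. They were taken by gene symbol as 3 of the 15703 genes in a table of expression levels from newborn neocortex, and the remaining paralog, Nfic, is given beside them. NFI proteins bind DNA as dimers through a conserved amino-terminal domain and can activate or repress transcription. In the developing cortex they are known for moving radial glia, the stem cells of the tissue, from self-renewal towards neurons and then glia, for switching on astrocyte genes and for the formation of the corpus callosum and the hippocampus.

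RNA was sequenced from the neocortex of C57BL/6 mice at postnatal day 0, with 3 wild-type animals (WT, genotype label WT) and 3 conditional knockouts (cKO, genotype Tcf4 f/f; Emx1Cre/+). The study asked how expression changes when Tcf4, a basic helix-loop-helix transcription factor, is lost. Emx1 drives Cre in progenitors of cortical excitatory neurons and glia, a lineage that does not include interneurons, microglia or vessels. The labels do not say whether the WT animals carried floxed alleles or Cre. Replicates bore 6 different animal codes and are called WT 1 to 3 and cKO 1 to 3.

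Levels are in FPKM (read fragments per kilobase of exon, relative to library depth), so they can be compared between libraries. Comparisons between genes, such as the order, shares and size of ratios of the members, also rest on the authors' exon lengths, which were not given. Approximate reads recovered from these values in listed genes numbered 25.4 to 28.7 M per library. A gene was called changed where limma's Benjamini-Hochberg adjusted p over all genes was under 0.05, and log2 changes are cKO minus WT on the log2(FPKM + 1) scale. Tcf4, counted over all its exons and all cells of the tissue, fell from 74.1 ± 2.45 to 57.4 ± 2.76 FPKM (mean ± SD, n = 3 per group, limma adjusted p = 0.00411).

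Nfib was the member that rose, by 1.19-fold. Nfia stood 1.19-fold higher in WT than in cKO, with no overlap between groups, but did not pass limma's test over all genes. Nfix, the most abundant member, did not pass and its groups overlapped. One of 3 members was called, in the higher direction, where limma called 7.22% of all genes higher, 8.59% lower and 15.8% in either direction. The groups did not overlap for Nfia and Nfib, 2 of 3 members, against 37.3% of all genes.

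The Nfia promoter window given by RefSeq (GRCm38.p6, the build also named mm10) is shown because Tcf4 belongs to the E-proteins, factors that bind the E-box, CANNTG, and because the level of Nfia was lower in every cKO library. Nfia was not called. Beside its window stands 1 of several Nfix windows, the one nearest an annotated start, Nfix being the member whose groups overlapped. Each window runs from 250 bases before to 50 after a transcript start, 5′ to 3′ on the gene's strand, and capitals mark CANNTG, which reads the same pattern on both strands.
Nfia, chr4:97581693-97581992, plus strand: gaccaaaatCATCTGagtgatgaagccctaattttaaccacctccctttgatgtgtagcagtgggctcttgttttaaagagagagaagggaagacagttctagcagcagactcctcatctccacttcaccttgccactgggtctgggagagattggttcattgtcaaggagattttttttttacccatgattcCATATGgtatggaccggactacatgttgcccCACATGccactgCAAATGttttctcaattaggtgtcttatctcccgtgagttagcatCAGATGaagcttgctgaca
Nfix, chr8:84773361-84773660, minus strand: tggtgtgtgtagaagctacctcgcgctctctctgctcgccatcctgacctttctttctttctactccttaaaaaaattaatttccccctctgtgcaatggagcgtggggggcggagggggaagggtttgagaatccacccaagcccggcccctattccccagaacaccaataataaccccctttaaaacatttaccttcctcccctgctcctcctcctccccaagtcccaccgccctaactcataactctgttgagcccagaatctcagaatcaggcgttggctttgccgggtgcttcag
The Nfia window held 5 matches to CANNTG and the Nfix window 0. Of 32851 RefSeq windows of 300 bases, 72.3% held at least 1 match and 2.10% held 5 or more. Neither window held CAGGTG or its complement CACCTG, present in 20.2% of windows, or the full NFI palindrome (TTGGC, then any 5 bases, then GCCAA, searched on both strands), present in 0.0365%; CAGGTG and CACCTG are themselves forms of CANNTG. These are matches of letters, not measured binding. The Nfia window lies 191 kb from the nearest Nfia transcript start in GENCODE M21, inside the span of the opposite-strand gene E130114P18Rik. The Nfix window lies 14 bases from the start of transcript Nfix-204. The remaining 3 Nfix windows held 0, 2 and 1 matches and the Nfic window held 1. In the Nfix window with 2 matches, 1 was CAGGTG, which both windows shown lack. Whether these matches bear on the level of any member was not tested. Expression was measured per gene, so it was not known which start was used.

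Nfix (ENSMUSG00000001911, chromosome 8, 84699876 to 84800344, minus strand, mm10) encodes the family member known for driving maturation of neural stem cells in the forebrain. Its level read 225, 226 and 196 FPKM in the libraries WT 1, 2 and 3 and, in cKO 1, 2 and 3, 224, 230.1 and 209 FPKM. The lowest library was a WT one and the highest a cKO one, and the ranges overlapped over most of their width. The means were 216 ± 17.1 FPKM in WT and 221 ± 11.1 FPKM in cKO (limma: log2 change 0.035, SE 0.0735, adjusted p = 0.771). The 95% interval of the fold, on the log2(FPKM + 1) scale, ran from 0.915 to 1.15. Nfix ranked number 100 of 15703 genes by mean level over the 6 libraries.

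Nfib (ENSMUSG00000008575, chromosome 4, 82290173 to 82705750, minus strand) encodes the member required for callosal axons and for the maturation of radial glia and of the lung. The WT libraries held 73.1, 73.8 and 75.7 FPKM and the cKO libraries 85.3, 91.9 and 87.4 FPKM. Every cKO library lay above every WT library, and the gap between the groups was wider than the spread within either. The mean rose from 74.2 ± 1.37 to 88.2 ± 3.35 FPKM (limma: log2 change 0.25, SE 0.058, adjusted p = 0.0191, 95% interval of the fold 1.08 to 1.30). By absolute log2 change, 22.8% of all genes moved further. The call was lost without WT 1 (limma adjusted p = 0.0767), without cKO 2 (0.103) and after correction for exon length and GC content (0.0593, log2 change 0.17).

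Nfia (ENSMUSG00000028565, chromosome 4, 97772734 to 98118874, plus strand) encodes the member best known for the onset of gliogenesis, where it acts downstream of Sox9. The WT libraries held 21.02, 22.5 and 20.4 FPKM and the cKO libraries 16.0, 19.7 and 18.3 FPKM. All 3 cKO libraries lay below all 3 WT libraries, with cKO 1 the lowest and cKO 2 within 1 FPKM of the lowest WT library. The means were 21.3 ± 1.07 and 17.97 ± 1.88 FPKM (limma: log2 change −0.24, SE 0.0819, unadjusted p = 0.0157, adjusted p = 0.0761). The 95% interval of the fold ran from 0.747 to 0.962. With limma voom on the recovered reads the adjusted p was 0.0360, and after correction for exon length and GC content it was 0.0183 (log2 change −0.30).

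Nfic (ENSMUSG00000055053, chromosome 10, 81396186 to 81455635, minus strand), known from tooth root formation, was the least abundant of the 4 genes. The WT libraries held 7.63, 5.96 and 6.99 FPKM and the cKO libraries 5.71, 5.91 and 5.59 FPKM. The groups were separated by less than 0.1 FPKM, between WT 2 and cKO 2. The means were 6.86 ± 0.844 and 5.74 ± 0.158 FPKM (log2 change −0.22, SE 0.0885, limma adjusted p = 0.123), and the gene was called lower without WT 2 (limma adjusted p = 0.0267).

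**Figure D1:**
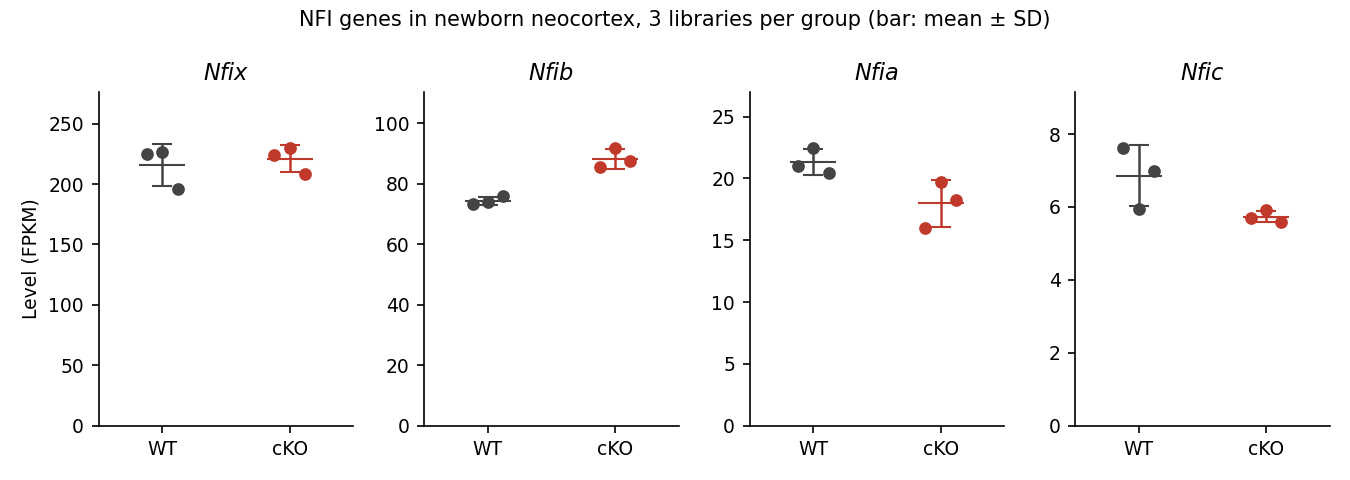
Level in FPKM (vertical axis, from 0, scaled separately in each panel) of Nfix, Nfib, Nfia and Nfic in the 3 WT and 3 cKO libraries; points are libraries and bars the mean ± SD. The Nfib points of cKO, 85.3 to 91.9 FPKM, all lie above those of WT, the Nfia points of cKO lie below those of WT, and the Nfix points overlap.

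The order of levels was Nfix, Nfib, Nfia and Nfic in each of the 6 libraries, and no neighbours in that order overlapped. Nfib ranked number 408, Nfia 2725 and Nfic 7309 by mean level among 15703 genes. Of the summed FPKM of the 4 genes, Nfix made up 67.8% ± 1.93 in WT and 66.4% ± 1.24 in cKO. The share of Nfib was 22.4%, 22.5% and 25.3% in WT and 25.8%, 26.4% and 27.3% in cKO. That of Nfia was 6.43%, 6.84% and 6.82% in WT and 4.82%, 5.67% and 5.71% in cKO. The summed level of the 3 members was 319, 323 and 292 FPKM over the WT libraries against 325, 342 and 314 FPKM over the cKO ones. These sums overlapped between groups and their means stood in a ratio of 1.05.

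The balance between members was compared within each library, where the scaling of the library cancels. Nfib stood 3.48, 3.28 and 3.71 times as high as Nfia in WT and 5.34, 4.67 and 4.79 times as high in cKO. The lowest cKO ratio lay above the highest WT ratio. That separation, and with it the exact p of this ratio, followed from the levels already given. Every cKO library lay above every WT library for Nfib and below for Nfia. The mean log2 ratio of Nfia to Nfib was −1.80 ± 0.0890 in WT and −2.30 ± 0.104 in cKO, a difference of −0.50 (exact permutation test, 2-sided, p = 0.1, n = 3 per group). The ratio of Nfia to Nfix also did not overlap between groups and differed by −0.29 (exact permutation p = 0.1). The ratio of Nfib to Nfix overlapped and differed by 0.21 (exact permutation p = 0.2). With 3 against 3 libraries, 0.1 is the smallest p this test can give, so none of the 3 ratios compared could pass 0.05.

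**Figure D2:**
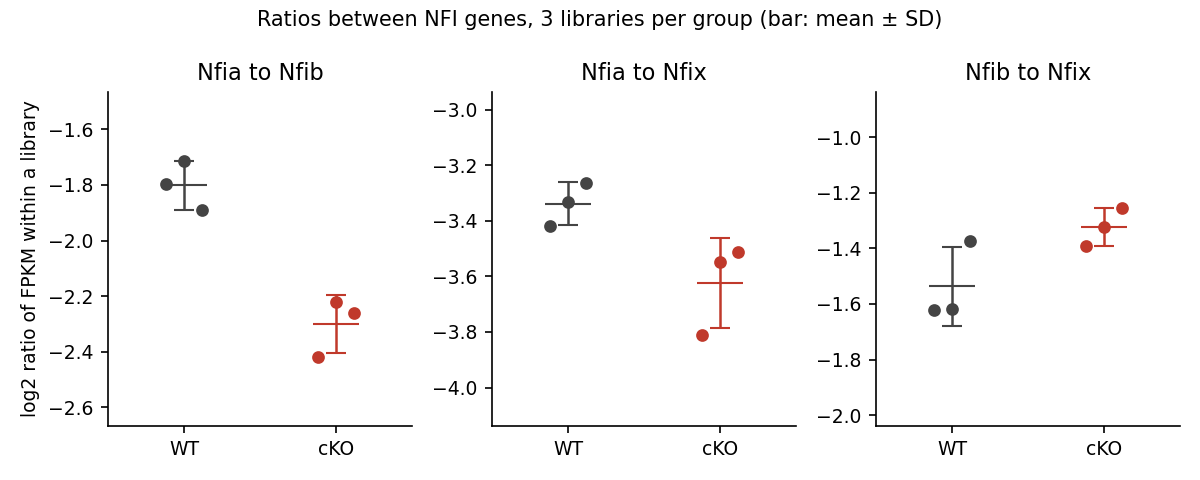
Log2 ratio of FPKM within a library (vertical axis, each panel spanning the same range around its own middle) for Nfia to Nfib, Nfia to Nfix and Nfib to Nfix; points are libraries, bars the mean ± SD. The ratio of Nfia to Nfib is lower in all 3 cKO libraries, with means of −1.80 in WT and −2.30 in cKO.

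Members and their neighbours could in principle share reads. Annotated transcripts of the 4 genes shared no identical run of 50 bases, and the longest was 32 bases, between Nfix and Nfic. Gm11266, an antisense RNA inside the span of Nfib with no exon base in common, rose from 7.65 ± 0.958 to 9.68 ± 0.428 FPKM (limma adjusted p = 0.0408). Leaving out any library but WT 3 ended this call, the weakest value being that without WT 1 (limma adjusted p = 0.144). G430095P16Rik, on the opposite strand inside Nfix, rose from 1.195 ± 0.392 to 2.997 ± 1.041 FPKM (limma adjusted p = 0.0135). Its exons share 137 bases with those of Nfix, 1.86% of the exon length of Nfix. The labels do not say whether counting used strand, so reads of these opposite-strand pairs may not be separable. E130114P18Rik overlaps the start of Nfia and Lyl1 the end of Nfix, each by 4 exon bases. Neither passed: E130114P18Rik was at 3.69 ± 0.520 and 4.41 ± 0.784 FPKM, and Lyl1 at 1.45 ± 0.102 and 1.202 ± 0.309 FPKM.

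Within 100 kb of Nfix, Ier2, an immediate early gene, fell from 4.79 ± 0.189 to 3.82 ± 0.309 FPKM (limma adjusted p = 0.0491). Calr, which encodes the chaperone calreticulin, fell from 143 ± 5.39 to 121 ± 9.55 FPKM (limma adjusted p = 0.0474). Both calls ended when any library but cKO 3 was left out, the limma adjusted p without cKO 2 being 0.154 for Ier2 and 0.149 for Calr. The other 11 genes in the table within 100 kb of a member did not pass, with log2 changes of −0.13 to 0.19. Among them were Zdhhc21 near Nfib and Cacna1a, Gm16183, Nacc1, Trmt1, Dand5, Gadd45gip1, Farsa, Syce2 and Gcdh near Nfix.

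The members have long exons, 14957 bases for Nfib, 10891 for Nfia and 7351 for Nfix. Among the 3527 genes of at least 7000 bases the median log2 change was 0.059, 10.5% were called higher and 6.24% lower, against a median of 0.0017 over all genes. The plot of estimates by setting shows each member under each processing choice. Nfib was higher in cKO under all 15 alternatives and called in 12. Nfia was lower under all 15 and called in 3. Nfix was called in none and changed sign in 2.

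**Figure D3:**
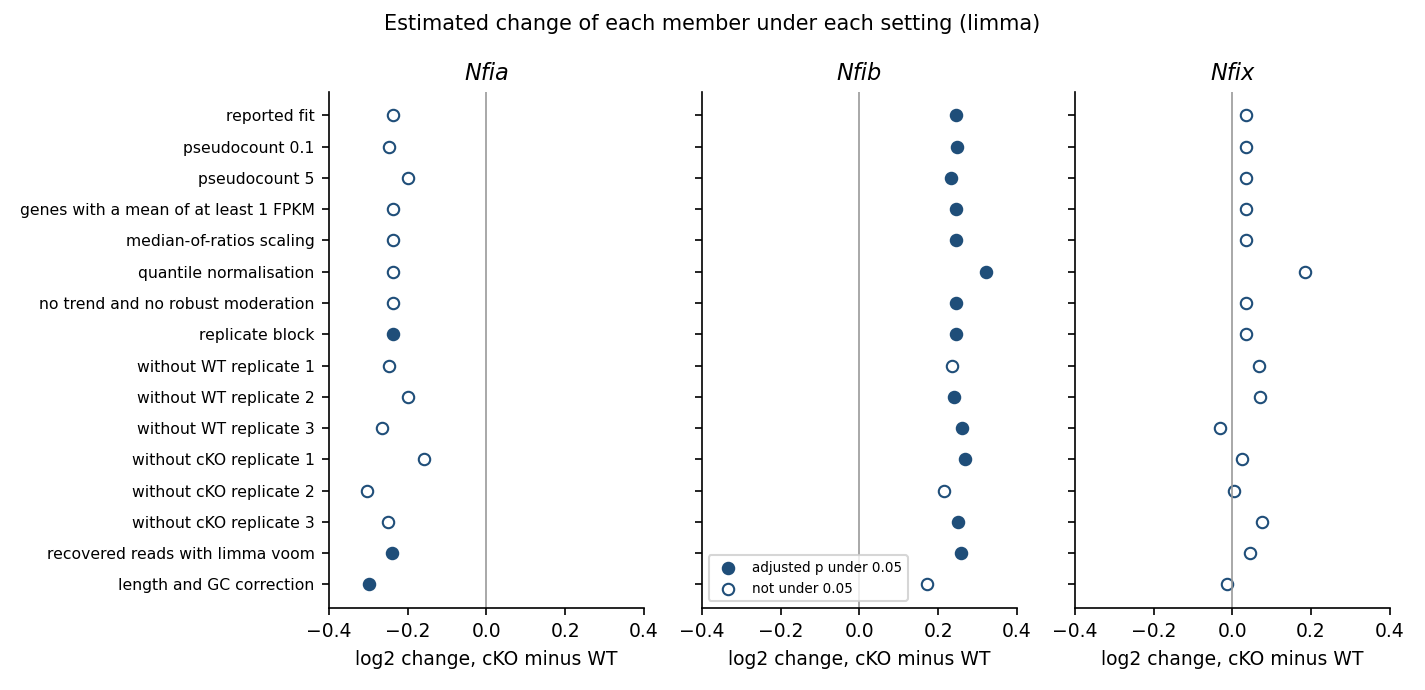
Estimated log2 change, cKO minus WT (horizontal axis), of Nfia, Nfib and Nfix under the reported fit and 15 alternatives (rows); filled points had a limma adjusted p under 0.05. Nfia stays between −0.30 and −0.16, Nfib between 0.17 and 0.32, and Nfix lies on both sides of 0.

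Among 17 regulators and partners of NFI factors, 2 rose, 2 fell and 13 did not pass, with a median log2 change of 0.036. These are 11.8% in each direction, near the shares over all genes, 7.22% higher and 8.59% lower. The same shares over all genes stand beside the counts of every list below. Sox9, the glial determinant upstream of Nfia, had WT values of 10.7, 9.998 and 9.73 FPKM and cKO values of 6.36, 7.79 and 8.06 FPKM. The Sox9 mean was 10.1 ± 0.4998 FPKM in WT and 7.40 ± 0.914 FPKM in cKO, a lower call (limma adjusted p = 0.0127) lost without WT 1 (0.0581). Its lowest library was cKO 1, as for Nfia. The same library was lowest for Gfap, Fabp7, Aqp4, Apoe and Apcdd1, described below, though not for Cntn2. A low value in cKO 1 was thus not particular to Sox9 and Nfia. Pou3f2, a POU factor of progenitors and upper-layer neurons, stood at 40.04 ± 3.12 FPKM in WT and rose to 52.8 ± 3.19 FPKM (limma adjusted p = 0.00707). Emx2, a homeobox factor of cortical progenitors, stood at 5.80 ± 0.141 FPKM in WT and rose to 7.57 ± 0.972 FPKM (limma adjusted p = 0.0366; lost without 4 libraries, up to 0.136 without cKO 2). Without single libraries, 1 to 3 of the 17 were called higher and 0 to 2 lower, with 0 lower without WT 1.

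Of 14 glial genes reported to be regulated by NFI factors, 13 were in the table. Of these, 9 fell, 4 missed the threshold and none rose, with a median log2 change of −0.53. Gfap, the astrocyte intermediate filament gene and a classical NFI target, was among those that fell, from 6.85 ± 1.71 to 3.60 ± 0.629 FPKM. Apcdd1, a Wnt inhibitor reported as a target of Nfia in gliogenesis, had WT values of 19.4, 16.6 and 21.8 FPKM and cKO values of 10.9, 11.9 and 12.1 FPKM (limma adjusted p = 0.00139). All cKO values lay below all WT values. Apoe, which encodes apolipoprotein E, fell 1.83-fold to 22.6 ± 3.66 FPKM. Aqp4, the astrocyte water channel, fell 2.01-fold to 1.77 ± 0.268 FPKM. Fabp7, which encodes a lipid-binding protein abundant in radial glia, fell 1.45-fold to 312 ± 47.5 FPKM. Without single libraries, 7 to 9 were called lower.

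Of the 14 glial genes, 11 are also markers of astrocytes or radial glia. Of 11 measured astrocyte markers 8 fell and none rose, and their summed level was 228 to 276 FPKM in WT and 190 to 221 FPKM in cKO. Without single libraries 6 to 8 of these markers were called lower. Sparcl1, the largest part of the astrocyte sum, did not pass, with means of 115 FPKM in WT and 122 FPKM in cKO. Of 12 radial glia markers 4 fell and 1 rose, with a median log2 change of −0.092 and sums of 683 to 727 FPKM (WT) and 453 to 571 FPKM (cKO). Fabp7 alone, at a mean of 454 FPKM in WT and 312 FPKM in cKO, made up most of that sum and of its difference. The 4 lower calls became 1 without WT 1 or cKO 1 and 2 without cKO 3. No marker of either list was at 0 in any group. Less RNA per cell and fewer cells of a type cannot be told apart in whole tissue, and the part of these cell types in the Nfia and Nfib values was not tested. Of 10 microglia markers 5 fell (28.7 to 33.9 and 16.6 to 24.9 FPKM summed), and 2 did without WT 1 and 3 without WT 3 or cKO 1. Of 8 markers of the oligodendrocyte lineage 2 fell and 1 rose (median log2 change −0.15, 1 to 3 lower without single libraries). Of 7 endothelial markers none passed.

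Markers of some neuron types moved as well. Of 6 markers of Cajal-Retzius cells, 1 fell and none rose (median log2 change 0.012). Of 12 deep-layer markers 7 fell and none rose (median log2 change −0.34; 5 to 7 lower without single libraries). Of 9 upper-layer markers 4 fell and 1 rose (3 to 4 lower without single libraries), and of 7 subplate markers 5 rose and 1 fell, also without any single library. Of 12 markers of GABAergic interneurons 4 fell and none rose, with 1 lower without WT 1 or cKO 1 and 2 without WT 3 or cKO 2. The part of these lists in the NFI values was not tested.

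Of 8 progenitor genes reported to be regulated by NFI factors, 7 were measured, 2 rose, 1 fell (Sox9) and 4 did not pass, with a median log2 change of 0.25. That is 28.6% higher and 14.3% lower in a small list, against 7.22% and 8.59% of all genes. Eomes, which marks intermediate progenitors, stood at 6.78 ± 0.332 FPKM in WT and rose to 11.96 ± 2.02 FPKM (limma adjusted p = 0.00165). Of 6 measured markers of intermediate progenitors, Eomes included, 3 rose and none fell, and the counts were the same under all 15 alternatives. Their summed level overlapped between groups, at 42.1 to 48.1 FPKM in WT and 41.8 to 60.4 FPKM in cKO. Among those that did not pass, Insm1, the most abundant marker of the list, and Neurod4 had log2 changes of −0.26 and −0.082. That of Btg2 was 0.18. Bbx, an HMG-box gene reported to be repressed by Nfix, rose from 1.70 ± 0.213 to 2.49 ± 0.225 FPKM (limma adjusted p = 0.0264; lost without WT 3, cKO 2 or cKO 3, up to 0.0993). Leaving out single libraries, 1 to 3 genes of this list were called higher (1 without WT 3, cKO 2 or cKO 3) and 0 to 1 lower (0 without WT 1).

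Of 8 neuronal genes reported to be regulated by NFI factors, mostly in cerebellar granule neurons, 7 were measured, 2 fell, 1 rose and 4 did not pass, with a median log2 change of 0.13. That is 28.6% lower and 14.3% higher in a small list, against 8.59% and 7.22% of all genes. Cntn2, an axonal adhesion molecule, had WT values of 100.1, 102.8 and 100.1 FPKM and cKO values of 17.6, 17.1 and 16.1 FPKM (limma adjusted p = 9.54e-09). This was a 5.96-fold decrease, and any relation to the NFI levels was not tested. Grin2c, an NMDA receptor subunit gene, fell from 0.593 ± 0.0743 to 0.270 ± 0.0487 FPKM (limma adjusted p = 0.00930). Its level was below 1 FPKM in every library. With the filter at 1 FPKM Grin2c left the list, which then held 1 lower call. Etv1, an ETS factor, stood at 10.8 ± 1.16 FPKM in WT and rose to 13.2 ± 0.345 FPKM (limma adjusted p = 0.0498) and was still called when WT 2 was left out, but not when any other library was (limma adjusted p = 0.157 without cKO 2).

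**Figure D4:**
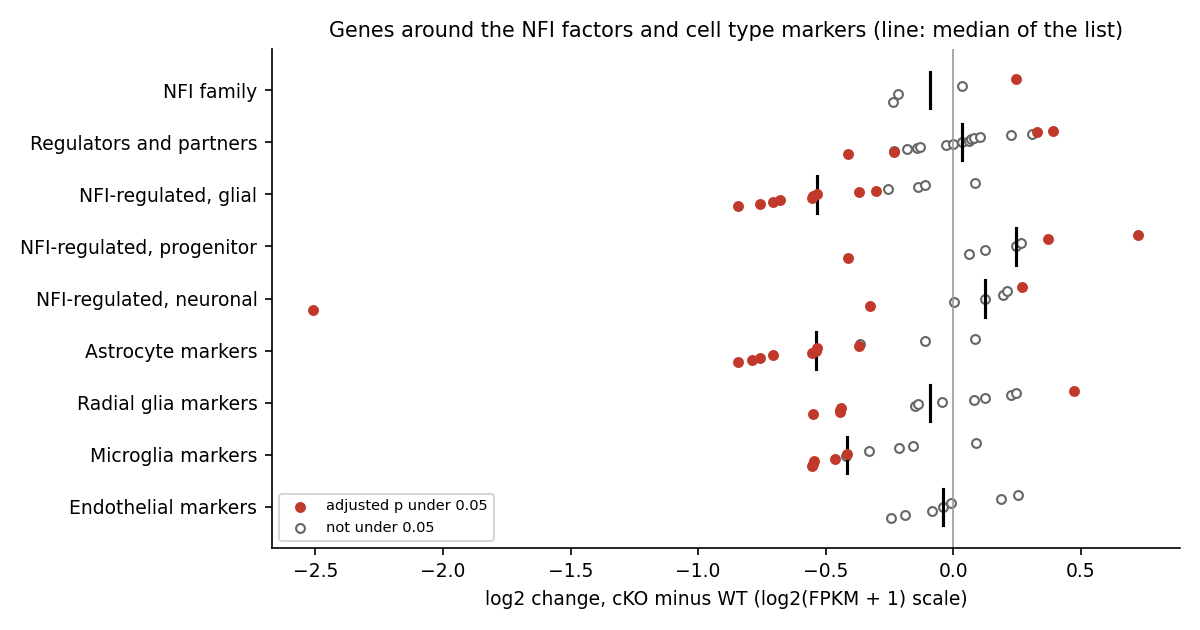
Log2 change, cKO minus WT (horizontal axis), of each measured gene in the lists around the NFI factors and in 4 lists of cell type markers (rows); filled points had a limma adjusted p under 0.05 and vertical lines are list medians. Glial NFI-regulated genes and astrocyte markers lie mostly below 0, with medians of −0.53 and −0.54, while the 4 NFI genes lie between −0.24 and 0.25.

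Likeness of pattern was described by Pearson's r of log2(FPKM + 1) over the 6 libraries, across 8212 genes with a mean of at least 5 FPKM. All points share the same libraries and genotype groups, and the highest of many values over 6 points is high by selection. For Nfia the most alike were the mitochondrial tRNA gene mt-Tn (r = 0.992), the SoxB1 factor gene Sox1 (r = 0.986) and Maged2 (r = 0.985). For Nfib they were Plekhf2, Gm29260 and Crebrf (r = 0.987 to 0.988). For Nfix they were Ccdc88c, Epb41 and Tmem94 (r = 0.977 to 0.984). Sox1 was at 8.87 FPKM on average in WT and 7.39 FPKM in cKO, a ratio of 0.833 beside the 0.843 of Nfia.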

How the data were processed

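The authors deposited 1 table of FPKM values, named so per the file headers, with 6 library columns and no others. Per the submitters' processing notes, the tools were DESeq2 1.22.1, R 3.4.1, featureCounts 1.6.1, STAR 2.5.4b and bcl2fastq 1.8.4, with the mm10 build. For the annotation, the strand setting and any low-gene filter, details were not given in the sources used here. After 139 blank lines were dropped, 15703 genes remained, 15655 of them matched by identifier to GENCODE M21, whose exon lengths (M21, not necessarily the authors') gave coordinates, reads and GC content. Reads were recovered with a library size at which 94.7% to 95.4% of low values lay within 0.1 of a whole read; summed reads exceed that size and are approximate.

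The planned test for normalised values was used: limma 3.58.1 (R 4.3.3, trend, robust) on log2(FPKM + 1), genotype only, no filter, adjusted p under 0.05. On simulated data it recovered 24% of genes changed 1.25-fold and 80% of those changed 1.5-fold (50 each of 15703 genes). The changed genes were drawn from those with a mean of at least 5 FPKM. They were a far smaller share than the 15.8% called in the data, which makes the adjusted p stricter. These percentages therefore do not give the power for the members. Limma's p-values weigh the difference between groups against the spread between these animals, moderated over all genes. The exact p-values place the difference in a ratio among all relabellings of the libraries. Ratios between members used exact permutation tests (Python 3.11.15, numpy 2.4.6, pandas 2.3.3).

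Named genes were Nfic, Tcf4, table genes within 100 kb of a member and up to 4 called genes of each NFI list. The 3 genes most alike each member were named too. Gfap was named after its value was seen. Outside these rules, Insm1, Neurod4 and Btg2 were named as the intermediate progenitor markers that did not pass. Members and lists were chosen with earlier results of these data known, so lists are described, not tested. Alternatives were other pseudocounts (0.1, 5), a filter at 1 FPKM, 2 scalings, no moderation, a block, leaving out each library, recovered reads with voom, and a length and GC correction. No Nfib promoter window was shown, because the RefSeq windows used here held none for Nfib. Animals were treated as unpaired. Values of 1 regulator and 1 neighbouring gene that enter the counts are not reported here.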

Additional observations from a re-analysis of the deposited data

How the results depend on the processing

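Without single libraries, the log2 change was −0.30 to −0.16 for Nfia (adjusted p 0.0670 to 0.231, called in none), 0.22 to 0.27 for Nfib (called in 4 of 6) and −0.032 to 0.076 for Nfix, which was negative without WT 3. Genes called higher then numbered 544 to 1572 and lower 830 to 1517. Leaving out a library changes both which animals are included and how many, and these were not told apart. With the length and GC correction, the changes were −0.30 (Nfia, called), 0.17 (Nfib, not called) and −0.013 (Nfix). With recovered reads and voom, Nfia was called at −0.24, and 1686 genes were called higher and 1362 lower. With the replicate number as a block, Nfia was called at −0.24 (adjusted p = 0.0453); the other members kept their calls. With that block, 1274 genes were called higher and 1541 lower. Deviations of same-numbered animals correlated at −0.0427, 0.109 and −0.0377, and WT 1 correlated best with cKO 3, so the numbers were not taken to pair them. Within number pairs, the ratio differences were −0.50, −0.29 and 0.21 (exact p = 0.25, the smallest 3 pairs allow). Ratios and the summed level kept their direction under every alternative run. With quantile normalisation, the log2 change of Nfix was 0.18 (adjusted p = 0.168, not called) against 0.035, that of Nfib was 0.32, and 1245 genes were called higher and 1266 lower, against 1134 and 1349. Among neighbours that did not pass, Gm16183 (−0.099 to 0.11), Trmt1 (−0.044 to 0.0089) and Gcdh (−0.016 to 0.026, and −0.0048 with quantile normalisation) changed sign without single libraries. The causes were not tested. With 3 animals a group, a call of Nfia or Nfib could be gained or lost with 1 setting, as listed.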
